A study of Homo sapiens with 9 samples.

Results

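LX-2 cells in which LOX had been knocked down were compared with LX-2 cells in which LOXL1 had been knocked down, gene by gene, and the control libraries were used to place each difference. The comparison takes 6 of the 9 libraries of the study. LX-2 is an established human hepatic stellate cell line, a culture model of the liver cell that turns into a matrix-producing myofibroblast in fibrosis. LOX siRNA (3 libraries) and LOXL1 siRNA (3 libraries) were each given at 25 nM for 48 hours, and a negative control siRNA (3 libraries) served as the baseline. Cells of every group carried TGFβ1 at 10 ng/ml, so no library shows stellate cells without this cytokine. All groups come from 1 cell line, and no source used here states the dose of the control siRNA. Control replicate 3 has a treatment label without the word siRNA and was grouped by its title. Nothing in the labels says that replicate libraries are separate cultures, and the p-values cover only the spread among these libraries, which may be technical.

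Lysyl oxidases are secreted, copper-dependent amine oxidases. They oxidise lysine side chains of collagen and elastin, and the aldehydes that form condense into the cross-links that stiffen the matrix. LOX is best known for collagen and elastin cross-linking in general, and LOXL1, its nearest relative in domain layout, for the renewal of elastic fibres. In fibrotic liver, stellate cells that have become myofibroblasts are a main source of these enzymes. A small interfering RNA lowers a transcript by guiding the cell's Argonaute proteins to a complementary stretch of it.

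No source used here gives the siRNA sequences. The targets are related genes, and the longest run of bases that their mRNAs share exactly is shown, as a place where a short RNA could pair in full with both transcripts. Pairing through shorter seed matches or mismatched sites was not searched. In GENCODE 29 (GRCh38), the LOX transcript of 5102 bases and the LOXL1 transcript of 2351 bases had 1 exact shared run of 15 bases or more. It is 22 bases long and lies in the coding part of exon 1 of both genes. The windows below are the mRNA strand, 5′ to 3′, with the shared run in capitals. LOX is read from chr5:122077803-122077864 on the minus strand and LOXL1 from chr15:73926896-73926957 on the plus strand.
LOX: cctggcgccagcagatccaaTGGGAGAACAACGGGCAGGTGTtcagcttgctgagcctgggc
LOXL1: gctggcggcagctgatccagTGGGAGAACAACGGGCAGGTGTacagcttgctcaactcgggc
Over these 62 bases, 53 were identical. Whether either siRNA falls in this run was not tested. Against control, the mean LOX level differed by 10.7% with LOXL1 siRNA, and the mean LOXL1 level by -5.11% with LOX siRNA.

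Levels are FPKM (fragment numbers divided by transcript length and by the mapped fragments of the library), as the authors deposited them. Differences are LOX siRNA minus LOXL1 siRNA in mean log2(FPKM + 1), with the standard error (SE) from limma, so a positive value means a higher level with LOX siRNA. Genes with at least 1 FPKM in 3 or more of the 9 libraries were tested, which left 11808 of 17123. The libraries had FPKM sums between 384881 and 396088, and 11663 to 11728 genes reached 1 FPKM in each library. All 10 stellate or mesenchymal markers averaged at least 1 FPKM. They summed to between 2197 and 2343 FPKM with LOX siRNA, between 2273 and 2439 with LOXL1 siRNA and between 2257 and 2397 in controls. Vimentin (VIM) alone had 1440 to 1535 FPKM of these sums, and the target LOX is among the markers. COL1A2, which encodes a type I collagen chain, was low throughout at 3.43 to 4.84 FPKM. The markers COL3A1, PDGFRB and ACTA2 had 6.05 to 10.28 FPKM. No hepatocyte marker (0 of 6) and no endothelial marker (0 of 6) averaged 1 FPKM. Of the markers of other cell types, CD68 and CD14 (2 of 6 for leukocytes) and KRT7 and SOX9 (2 of 4 for bile duct cells) did. CD68 had 38.23 to 45.02 FPKM and SOX9 10.7 to 13.36, above COL3A1, PDGFRB and ACTA2, while CD14 and KRT7 had 1.31 to 4.09. Control replicate 2 stood apart in base composition, with a Spearman's rho of 0.695 across genes for its deviation against GC content, against -0.308 to 0.168 in the other libraries.

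Of the 11808 genes tested, 25 (0.212%) differed between the knockdowns at a Benjamini-Hochberg adjusted p under 0.05. With LOX siRNA 17 (0.144%) were higher and 8 (0.0678%) were lower than with LOXL1 siRNA. At an unadjusted p under 0.05, 12.8% of tested genes passed (8.25% higher and 4.56% lower with LOX siRNA), and in 21.5% the 3 libraries of one knockdown lay wholly above or below those of the other. At the 25 genes with an adjusted p under 0.05, the differences spanned 0.20 to 0.83 in size on the log2 scale. The number passing depended on single libraries. It was 9, 5 and 5 without LOX siRNA replicate 1, 2 and 3, and 6, 13 and 39 without LOXL1 siRNA replicate 1, 2 and 3. Without control replicate 1, 2 and 3, which enter only through the estimate of spread, it was 14, 56 and 28. LOX, CDC23, AKIRIN1 and VOPP1 passed whichever library was left out, and all 25 genes kept their sign in these fits.

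Each differing gene was then set against the control libraries. A knockdown was said to depart from control where its 3 libraries lay all above or all below the 3 control libraries and its unadjusted limma p was under 0.05. By this rule LOX siRNA departed at 13 of the 25 genes, against 5.4% of all tested genes, and LOXL1 siRNA at 22, against 7.9% of all tested genes. LOX siRNA alone departed at 3 genes (4.36% of all tested genes) and LOXL1 siRNA alone at 12 (6.86%). Both departed in opposite directions at 9 (0.110%) and in the same direction at 1 (0.932%). Both comparisons use the same control libraries, and the genes were chosen for a difference between the knockdowns, so departure of one or the other was built in and the counts are a description. Adjusted over all genes, the difference from control passed at 1 of the 25 genes with LOX siRNA, where 0.00847% of all genes passed, and at 7 with LOXL1 siRNA, where 0.0762% did. The control mean lay between the knockdown means at 21 of the 25 genes. It was nearer to the LOX siRNA mean at 18 of the 25. Among those were LOXL1, HAS2, MICB and NPTXR, where it lay beyond the LOX siRNA mean. With trends on transcript length and GC content removed from each library, LOX siRNA departed at 7 of the 25 genes and LOXL1 siRNA at 17. No share of all tested genes is given for that setting or for the position of the control mean, so these counts are a description too.

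The midpoint of the knockdowns against control is a contrast orthogonal to their difference, but its p uses the same estimate of spread that chose the genes, and the targets are among them, so its count is a description too. It differed from control at an unadjusted p under 0.05 in 10 of the 25 genes, against 7.47% of all tested genes, and after adjustment in 0 of the 25 and 0 of all genes. Where midpoint and difference have the same sign, LOX siRNA is the one farther from control, and where the signs are opposite it is LOXL1 siRNA.

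**Figure D1:**
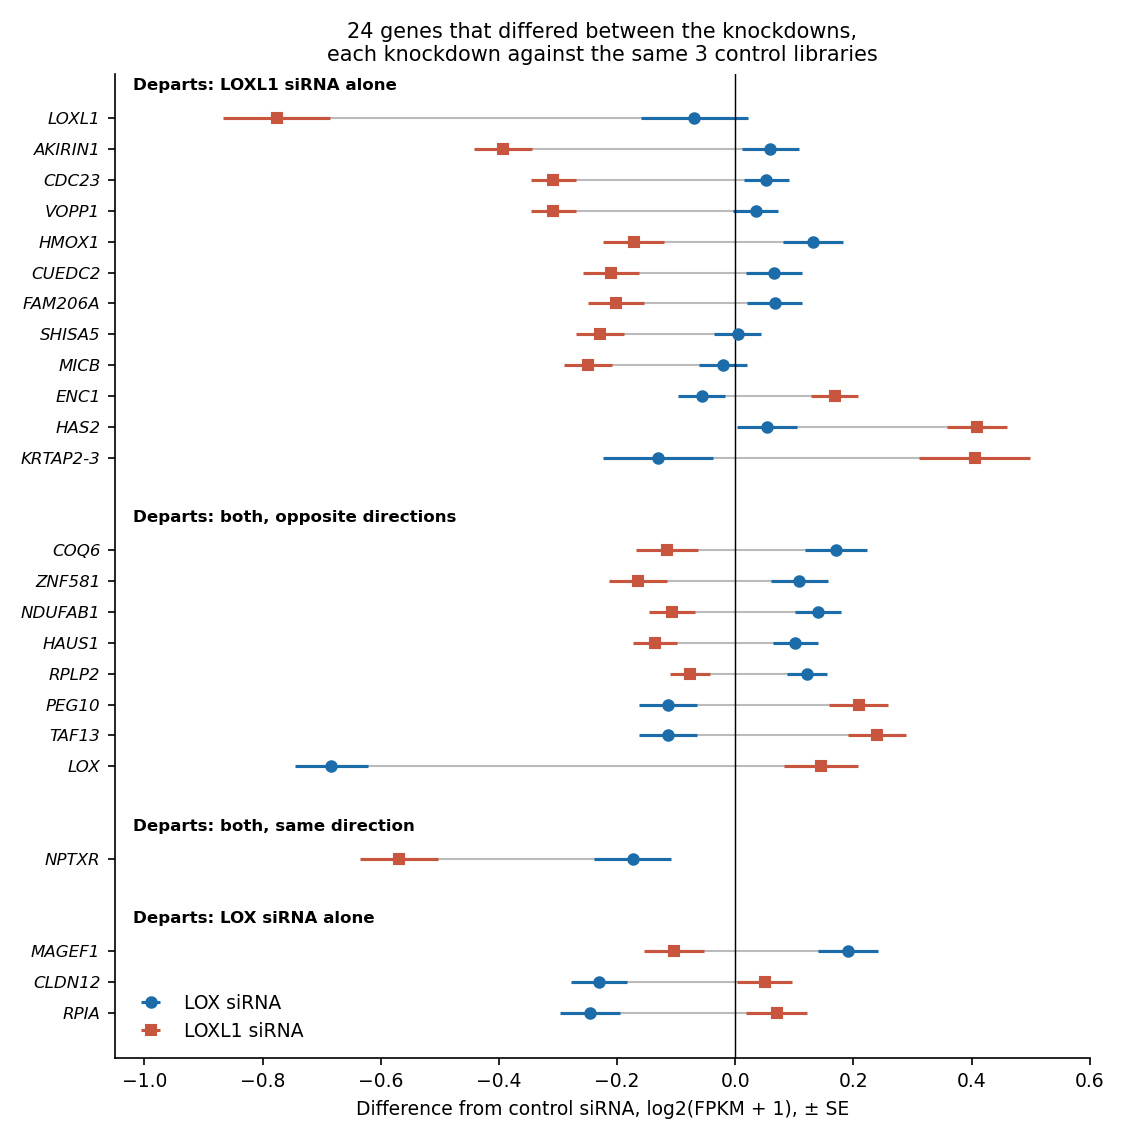
Difference from control siRNA in mean log2(FPKM + 1) for 24 of the 25 genes that differed between the knockdowns, LOX siRNA as circles and LOXL1 siRNA as squares, with bars for ± SE and a vertical line at the control level. Genes are grouped by which knockdown departs from control, LOX siRNA alone at 3 genes, LOXL1 siRNA alone at 12, both in opposite directions at 8 of those drawn and both in the same direction at 1.

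Among the 25 genes, the targets had the largest differences. LOX was measured at 28.9, 30.8 and 25.6 FPKM with LOX siRNA, at 51.9, 49.5 and 51.9 FPKM with LOXL1 siRNA and at 47.7, 42.8 and 48.05 FPKM in controls (chromosome 5, 122063195 to 122078501, minus strand). The LOX siRNA libraries lay below all others, and the LOXL1 siRNA libraries lay just above all controls. The means were 28.4 ± 2.67 and 51.1 ± 1.39 FPKM (SD, n = 3 each), 44.4% lower with LOX siRNA than with LOXL1 siRNA, a log2 difference of -0.83 (SE 0.062, limma, adjusted p = 6.64e-05). Against control, LOX siRNA had a log2 difference of -0.68 (adjusted p = 6.73e-04) and LOXL1 siRNA one of 0.14, with an unadjusted limma p of 0.0363 and an adjusted p of 0.456. Both knockdowns therefore departed by the rule, in opposite directions, with only the fall under LOX siRNA passing adjustment. LOX shares exon bases with SRFBP1 on the other strand, and whether the counting used strand is not stated.

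LOXL1 was measured at 12.5, 10.6 and 11.9 FPKM with LOX siRNA, at 5.66, 7.26 and 7.49 FPKM with LOXL1 siRNA and at 12.2, 13.5 and 11.3 FPKM in controls (chromosome 15, 73926458 to 73952141, plus strand). All LOXL1 siRNA libraries lay below the others, and the LOX siRNA libraries overlapped the controls. Means of 11.7 ± 0.959 FPKM with LOX siRNA and 6.803 ± 0.997 with LOXL1 siRNA (SD, n = 3 each) gave a log2 difference of 0.71 (SE 0.091, limma, adjusted p = 0.006301). Against control, LOX siRNA had -0.069 (adjusted p = 0.9104) and LOXL1 siRNA, which departed alone, -0.78 (adjusted p = 0.00432). Without LOX siRNA replicate 3 the difference between the knockdowns had an adjusted p of 0.05196, and with no filter on low values one of 0.103. Of the other 3 tested family members, none of which passed, LOXL3 had 2.69 ± 0.137, 2.37 ± 0.267 and 2.39 ± 0.222 FPKM with LOX siRNA, LOXL1 siRNA and control siRNA, a log2 difference of 0.13 (adjusted p = 0.495). Each siRNA group had the lowest level of its own target, and both knockdowns were partial.

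**Figure D2:**
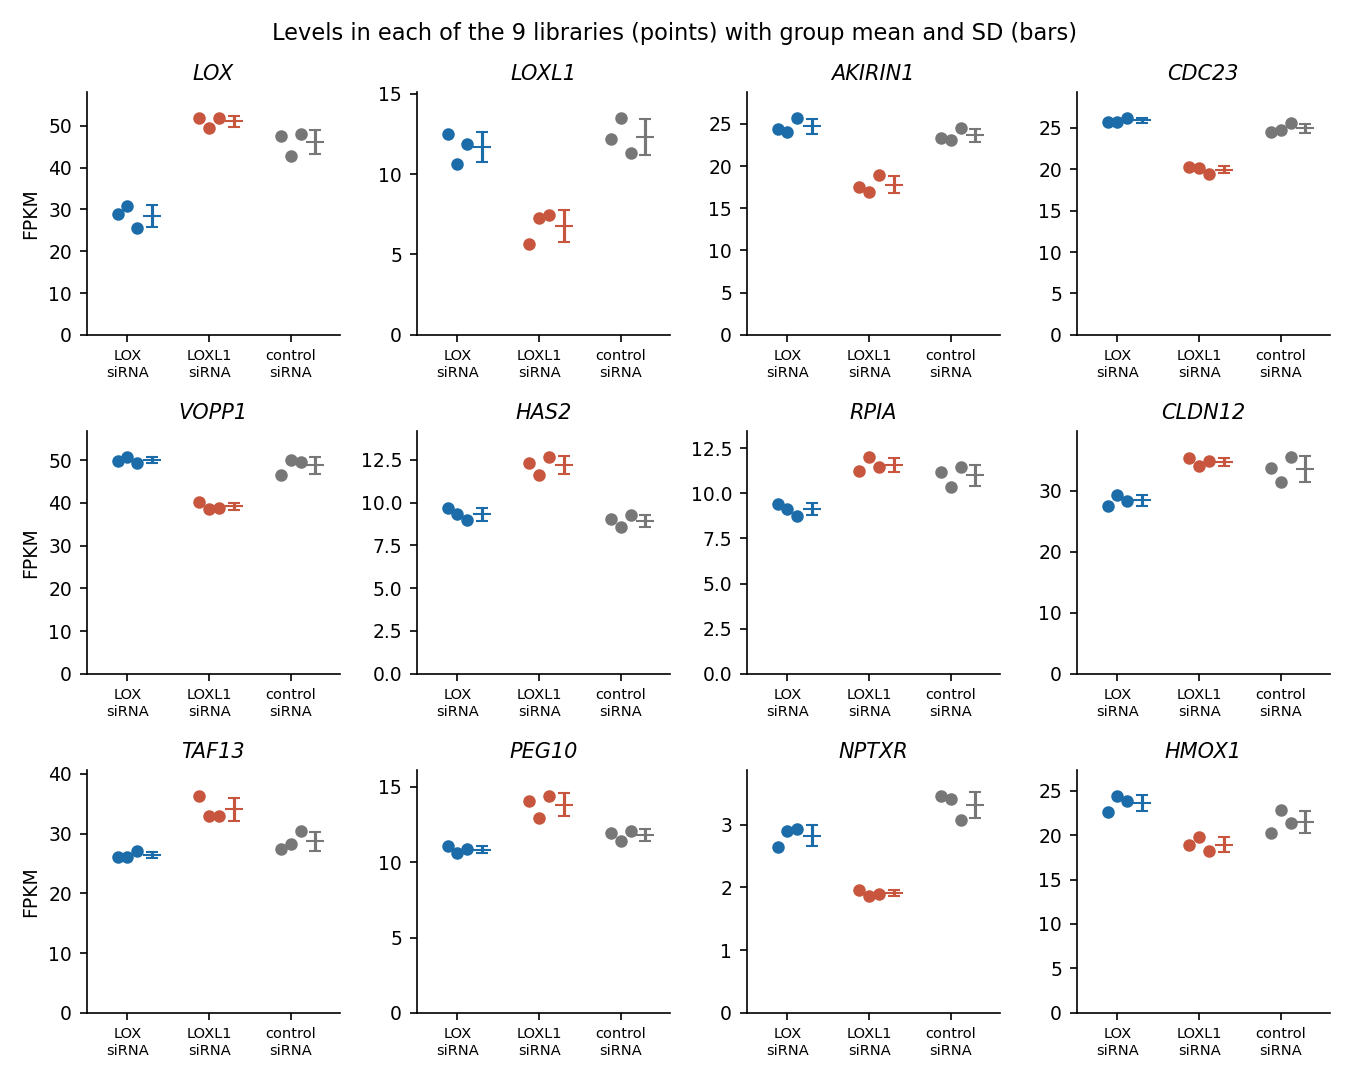
FPKM of 12 genes in each of the 9 libraries as points, with the group mean and SD as bars, for LOX siRNA, LOXL1 siRNA and control siRNA from left to right; each vertical axis starts at 0. For AKIRIN1, CDC23 and VOPP1 the LOXL1 siRNA libraries stand below both other groups, while for RPIA and CLDN12 the LOX siRNA libraries do.

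The 3 genes with the smallest adjusted p after LOX were all lower with LOXL1 siRNA and close to control with LOX siRNA. CDC23, a subunit of the anaphase-promoting complex that drives the exit from mitosis, had 25.8, 25.7 and 26.2 FPKM with LOX siRNA, 20.2, 20.2 and 19.4 with LOXL1 siRNA and 24.5, 24.8 and 25.6 in controls (chromosome 5, 138187648 to 138213343, minus strand). The LOXL1 siRNA libraries lay below all 6 others, and the LOX siRNA libraries lay just above the controls. The log2 difference between the knockdowns was 0.36 (SE 0.038, adjusted p = 0.00152). Against control it was 0.052 with LOX siRNA (adjusted p = 0.787) and -0.31 with LOXL1 siRNA (adjusted p = 0.00432). AKIRIN1, a member of the akirin family of small nuclear proteins, had 24.4, 24.1 and 25.7 FPKM with LOX siRNA, 17.5, 16.9 and 18.96 with LOXL1 siRNA and 23.3, 23.1 and 24.6 in controls (chromosome 1, 38991244 to 39006065, plus strand). Its LOXL1 siRNA libraries were again the lowest, while LOX siRNA and control libraries overlapped. The log2 difference was 0.45 (SE 0.049, adjusted p = 0.00152), with 0.060 for LOX siRNA against control and -0.39 for LOXL1 siRNA against control (adjusted p = 0.00432). VOPP1, which encodes a small membrane protein of intracellular vesicles, had 49.8, 50.7 and 49.3 FPKM with LOX siRNA, 40.1, 38.6 and 38.9 with LOXL1 siRNA and 46.5, 50.1 and 49.6 in controls (chromosome 7, 55470608 to 55572520, minus strand). Here too the LOXL1 siRNA libraries lay below a shared range of the other groups, with a log2 difference of 0.34 (SE 0.038, adjusted p = 0.00192) and -0.31 for LOXL1 siRNA against control (adjusted p = 0.00432). CDC23 shares exon bases with KIF20A on the other strand, and no overlap was found for AKIRIN1 or VOPP1.

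HAS2 was the matrix gene among the 25 beside the targets. It encodes a synthase of hyaluronan, the large sugar polymer of loose matrix. HAS2 had 9.7, 9.32 and 8.96 FPKM with LOX siRNA, 12.3, 11.6 and 12.7 with LOXL1 siRNA and 9.03, 8.56 and 9.26 in controls (chromosome 8, 121613031 to 121641390, minus strand). The LOXL1 siRNA libraries lay above all 6 others, and the LOX siRNA and control libraries overlapped. The log2 difference between the knockdowns was -0.36 (SE 0.051, adjusted p = 0.0146). Against control, LOX siRNA had 0.054 (adjusted p = 0.855), while the level with LOXL1 siRNA rose by 0.41 (adjusted p = 0.00432). HAS2 passed in 6 of the 9 fits with 1 library left out, with a highest adjusted p of 0.122 without LOX siRNA replicate 3, and it shares exon bases with HAS2-AS1.

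A further 5 genes departed with LOXL1 siRNA alone and were lower there. HMOX1, heme oxygenase 1, which breaks down heme and is induced by NRF2, had 22.6, 24.4 and 23.8 FPKM with LOX siRNA, 18.8, 19.8 and 18.2 with LOXL1 siRNA and 20.3, 22.8 and 21.3 in controls (chromosome 22, 35381067 to 35394214, plus strand). The control libraries filled the gap between the knockdowns and overlapped LOX siRNA, and the log2 difference was 0.30 (SE 0.051, adjusted p = 0.0375). Its distance from control was 0.13 with LOX siRNA and -0.17 with LOXL1 siRNA, so the control lay about midway. SHISA5, an endoplasmic reticulum protein induced by p53, had 96.1, 92.5 and 95.8 FPKM with LOX siRNA, 82.7, 80.2 and 78.5 with LOXL1 siRNA and 90.4, 98.96 and 94.2 in controls, a log2 difference of 0.23 (SE 0.040, adjusted p = 0.0375). MICB, a stress-induced ligand of the NKG2D receptor of natural killer cells, had 23.9, 23.6 and 23.8 FPKM with LOX siRNA, 20.4, 19.8 and 20.2 with LOXL1 siRNA and 25.2, 23.2 and 24.02 in controls, a log2 difference of 0.23 (SE 0.041, adjusted p = 0.0393). For both genes LOX siRNA and control overlapped and LOXL1 siRNA lay below them, and for MICB the distance of LOXL1 siRNA from control passed adjustment (-0.25, adjusted p = 0.04902). MICB is polymorphic and lies in the table on an alternate contig, so its level is uncertain. CUEDC2, a ubiquitin-binding CUE domain protein, had 21.7, 20.9 and 21.8 FPKM with LOX siRNA, 17.2, 17.2 and 18.3 with LOXL1 siRNA and 19.3, 20.4 and 21.6 in controls, a log2 difference of 0.28 (SE 0.048, adjusted p = 0.0375). FAM206A had 35.9, 35.9 and 36.3 FPKM with LOX siRNA, 29.8, 28.8 and 30.6 with LOXL1 siRNA and 35.4, 31.8 and 36 in controls, a log2 difference of 0.27 (SE 0.047, adjusted p = 0.0375). In both, LOXL1 siRNA again fell outside a range that LOX siRNA and control shared. With 1 library left out, HMOX1 and SHISA5 passed in 3 and 3 of 9 fits, MICB in 1, CUEDC2 in 4 and FAM206A in 3.

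ENC1 and KRTAP2-3 also departed with LOXL1 siRNA alone, and were higher there. ENC1, a kelch protein that binds actin, had 28.3, 30.3 and 28.6 FPKM with LOX siRNA, 35.1, 33.5 and 33.8 with LOXL1 siRNA and 30.6, 29.5 and 30.8 in controls. LOXL1 siRNA lay above both other groups, which overlapped, and the log2 difference was -0.22 (SE 0.040, adjusted p = 0.0393). KRTAP2-3, a keratin-associated protein gene with near-identical copies, had 29.2, 27.6 and 25.4 FPKM with LOX siRNA, 40.02, 35.6 and 45.4 with LOXL1 siRNA and 27.8, 35.1 and 27.9 in controls. Its LOXL1 siRNA libraries lay above the rest but spread widely, giving a log2 difference of -0.54 (SE 0.093, adjusted p = 0.0375), and reads of its copies may be mixed in. ENC1 passed in 2 and KRTAP2-3 in 3 of the 9 fits with 1 library left out.

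LOX siRNA departed alone at RPIA, CLDN12 and MAGEF1, and none of these distances from control passed adjustment. RPIA encodes ribose-5-phosphate isomerase of the pentose phosphate pathway, which supplies ribose for nucleotides. It had 9.42, 9.14 and 8.76 FPKM with LOX siRNA, 11.3, 12.01 and 11.5 with LOXL1 siRNA and 11.2, 10.3 and 11.5 in controls (chromosome 2, 88691658 to 88750935, plus strand). The LOX siRNA libraries lay below all 6 others, and the others overlapped. The log2 difference between the knockdowns was -0.32 (SE 0.051, adjusted p = 0.0345), with -0.25 for LOX siRNA against control (adjusted p = 0.423) and 0.070 for LOXL1 siRNA. CLDN12, a claudin, one of a family of tight junction proteins, had 27.5, 29.4 and 28.4 FPKM with LOX siRNA, 35.3, 33.99 and 34.8 with LOXL1 siRNA and 33.7, 31.4 and 35.5 in controls (chromosome 7, 90403334 to 90415954, plus strand). It showed the same arrangement, LOX siRNA lowest and the other groups overlapping, with a log2 difference of -0.28 (SE 0.047, adjusted p = 0.0375) and -0.23 for LOX siRNA against control (adjusted p = 0.423). MAGEF1, a MAGE family gene, had 18.04, 18.6 and 19.3 FPKM with LOX siRNA, 15.1, 14.3 and 15.6 with LOXL1 siRNA and 16.3, 15.3 and 17.1 in controls. The LOX siRNA libraries were the highest, and the log2 difference was 0.29 (SE 0.051, adjusted p = 0.0375). RPIA passed in 3, CLDN12 in 2 and MAGEF1 in 3 of the 9 fits with 1 library left out.

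Beside LOX, 8 genes departed with both knockdowns in opposite directions, and their controls lay between the knockdowns with no overlap on either side. CDC23 had this arrangement of libraries too. Its LOX siRNA difference from control had an unadjusted limma p of 0.191 and so was not a departure by the rule. TAF13, a subunit of the general transcription factor TFIID, had 26.2, 26.04 and 27.1 FPKM with LOX siRNA, 36.3, 32.9 and 33 with LOXL1 siRNA and 27.4, 28.2 and 30.4 in controls (chromosome 1, 109064376 to 109076002, minus strand). The LOX siRNA libraries were the lowest and the LOXL1 siRNA libraries the highest. Its log2 difference was -0.35 (SE 0.049, adjusted p = 0.0122), and LOX siRNA (-0.11) lay nearer to control than LOXL1 siRNA (0.24). PEG10, an imprinted gene derived from a retrotransposon, had 11.1, 10.6 and 10.9 FPKM with LOX siRNA, 14.1, 12.9 and 14.4 with LOXL1 siRNA and 11.9, 11.4 and 12.1 in controls, a log2 difference of -0.32 (SE 0.049, adjusted p = 0.02497). As with TAF13, LOX siRNA was the nearer of the pair, at -0.11 from control against 0.21 for LOXL1 siRNA. TAF13 passed in 5 and PEG10 in 5 of the 9 fits with 1 library left out, and the highest adjusted p, both without LOX siRNA replicate 2, were 0.0946 and 0.132.

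A further 5 of these genes were highest with LOX siRNA, intermediate in controls and lowest with LOXL1 siRNA. NDUFAB1, the mitochondrial acyl carrier protein and a complex I subunit, had 40.8, 41.5 and 40.1 FPKM with LOX siRNA, 33.7, 34.5 and 34.4 with LOXL1 siRNA and 38.3, 35.4 and 37.1 in controls, a log2 difference of 0.25 (SE 0.039, adjusted p = 0.0278). HAUS1, a subunit of the augmin complex of the mitotic spindle, had 47.3, 44.8 and 47.5 FPKM with LOX siRNA, 39.7, 39.1 and 39.05 with LOXL1 siRNA and 44.7, 43.01 and 42.1 in controls, a log2 difference of 0.24 (SE 0.038, adjusted p = 0.0317). In neither gene did any 2 groups overlap, though the lowest control for NDUFAB1 lay near the LOXL1 siRNA libraries. For HAUS1 the lowest LOX siRNA library (44.77 FPKM) lay just above the highest control (44.67 FPKM). RPLP2, a protein of the ribosomal stalk, had 490.0, 504 and 491 FPKM with LOX siRNA, 435, 437 and 421 with LOXL1 siRNA and 461, 458 and 445 in controls, a log2 difference of 0.20 (SE 0.034, adjusted p = 0.0375). ZNF581, a zinc finger gene, had 14.6, 14.1 and 15.02 FPKM with LOX siRNA, 11.3, 11.9 and 12.3 with LOXL1 siRNA and 13.1, 13.1 and 14.02 in controls, a log2 difference of 0.27 (SE 0.048, adjusted p = 0.0393). Both had separate groups in the same order, but for ZNF581 the lowest LOX siRNA library (14.05 FPKM) barely cleared the highest control (14.02 FPKM). COQ6, a monooxygenase of coenzyme Q synthesis, had 7.25, 7.77 and 7.08 FPKM with LOX siRNA, 5.82, 5.9 and 5.85 with LOXL1 siRNA and 6.58, 6.19 and 6.52 in controls, a log2 difference of 0.29 (SE 0.052, adjusted p = 0.0468). It was the last gene inside the threshold. With 1 library left out, NDUFAB1 and HAUS1 passed in 4 and 4 of 9 fits, RPLP2 in 2, ZNF581 in 3 and COQ6 in 1. None of the 5 passed with length and GC trends removed (limma, adjusted p = 0.095, 0.089, 0.299, 0.121 and 0.063 in the order named). Nor did any distance from control pass adjustment, with limma adjusted p of 0.569 to 0.706 for LOX siRNA and 0.252 to 0.476 for LOXL1 siRNA.

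NPTXR was the 1 gene at which both knockdowns departed downward. It encodes the neuronal pentraxin receptor. The LOX siRNA libraries had 2.64, 2.9 and 2.94 FPKM, the LOXL1 siRNA libraries 1.96, 1.87 and 1.89 and the controls 3.46, 3.41 and 3.08 (chromosome 22, 38818451 to 38844012, minus strand). The groups did not overlap, with LOXL1 siRNA the lowest and LOX siRNA between it and control. The knockdowns differed by 0.40 (SE 0.066, adjusted p = 0.0375), and they stood at -0.17 (LOX siRNA, adjusted p = 0.679) and -0.57 (LOXL1 siRNA, adjusted p = 0.00432) from control. Their midpoint lay at -0.37 from control (adjusted p = 0.0883). NPTXR passed in 2 of the 9 fits with 1 library left out.

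Just outside the threshold stood STX4, a syntaxin of the plasma membrane, and PPIF, the cyclophilin of the mitochondrial matrix. STX4 had 21.6, 20.7 and 21.1 FPKM with LOX siRNA, 17.4, 17.7 and 18.7 with LOXL1 siRNA and 20.8, 20.8 and 19.9 in controls, a log2 difference of 0.23 (SE 0.042, adjusted p = 0.0554). PPIF had 40.98, 42.9 and 40.4 FPKM with LOX siRNA, 32.1, 30.96 and 37.04 with LOXL1 siRNA and 39.9, 41.6 and 38.8 in controls, a log2 difference of 0.31 (SE 0.058, adjusted p = 0.0588).

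**Figure D3:**
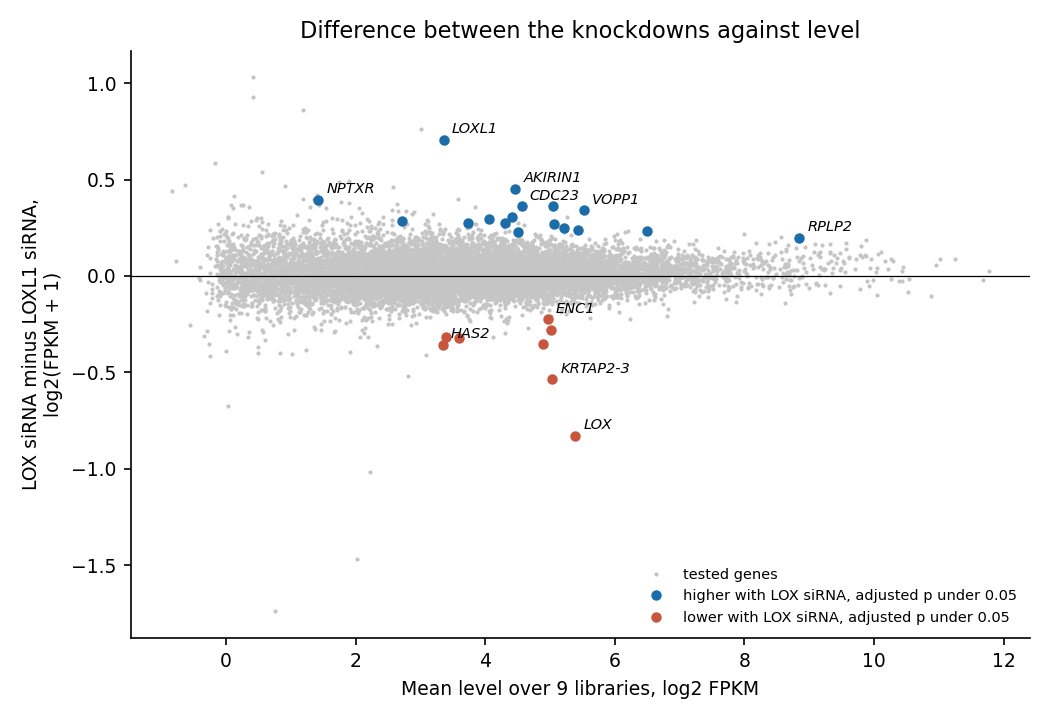
Log2 difference, LOX siRNA minus LOXL1 siRNA, against the mean level over 9 libraries in log2 FPKM for all 11808 tested genes (grey), with the 17 genes higher and the 8 lower with LOX siRNA in colour. LOX at -0.83 and LOXL1 at 0.71 stand farthest from 0 among the coloured points, and several uncoloured points of low level lie as far out.

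A large difference did not by itself pass. Of 14 genes with a log2 difference of at least 0.5 in size, 3 passed, namely LOX, LOXL1 and KRTAP2-3, and in 8 of the other 11 the groups overlapped. SULT1A3, a sulfotransferase gene with a near-identical copy, was listed at 0 in all LOX siRNA libraries, at 5.11, 5.08 and 0 FPKM with LOXL1 siRNA and at 0, 0 and 5.09 FPKM in controls. Its copy SULT1A4 had 9.99, 8.93 and 9.73 FPKM with LOX siRNA, 3.63, 3.84 and 9.72 with LOXL1 siRNA and 9.52, 11.3 and 6.07 in controls. The libraries in which SULT1A3 was listed above 0 were those in which SULT1A4 was lowest, so the level of either copy is uncertain. These genes were chosen for naming after their values were seen.

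The differing genes also differed in transcript length. The 17 genes higher with LOX siRNA had a median transcript length of 1912 bases and 16 of them were shorter than the median of all tested genes, 3219.5 bases. The 8 lower genes had a median of 3467.5 bases, with 3 below the all-gene median. In GC content the higher genes had a median of 54.3% and the lower genes one of 42.2%, against 48.7% over all tested genes. Across all genes the median log2 difference went with length, being 0.052, 0.034, 0.017, -0.0043 and -0.035 over 5 equal classes of genes from the shortest to the longest. The libraries moved with it, a library's deviation having a Spearman's rho with length across genes of -0.285, -0.279 and -0.249 for LOX siRNA replicates 1 to 3. It was 0.308, 0.197 and -0.049 for LOXL1 siRNA and 0.376, -0.166 and 0.138 for controls. With the length and GC trends removed, 22 genes passed, 11 higher and 11 lower with LOX siRNA, and 15 of the 25 were among them. They include LOX, LOXL1, CDC23, AKIRIN1, VOPP1, TAF13, HAS2, PEG10, RPIA, NPTXR, CLDN12, KRTAP2-3, FAM206A and ENC1. Quantile normalization gave a split of 5 higher and 6 lower. Exons of 12 of the 25 genes (among them LOX, LOXL1, CDC23, HAS2, PEG10, HAUS1, CLDN12, RPLP2, ENC1, ZNF581 and COQ6) overlap exons of another gene in GENCODE 29. The overlap is on the same strand for CLDN12 and ZNF581 and in part for RPLP2, and on the other strand for the rest of those named, where reads cannot be told apart if strand was not used.

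**Figure D4:**
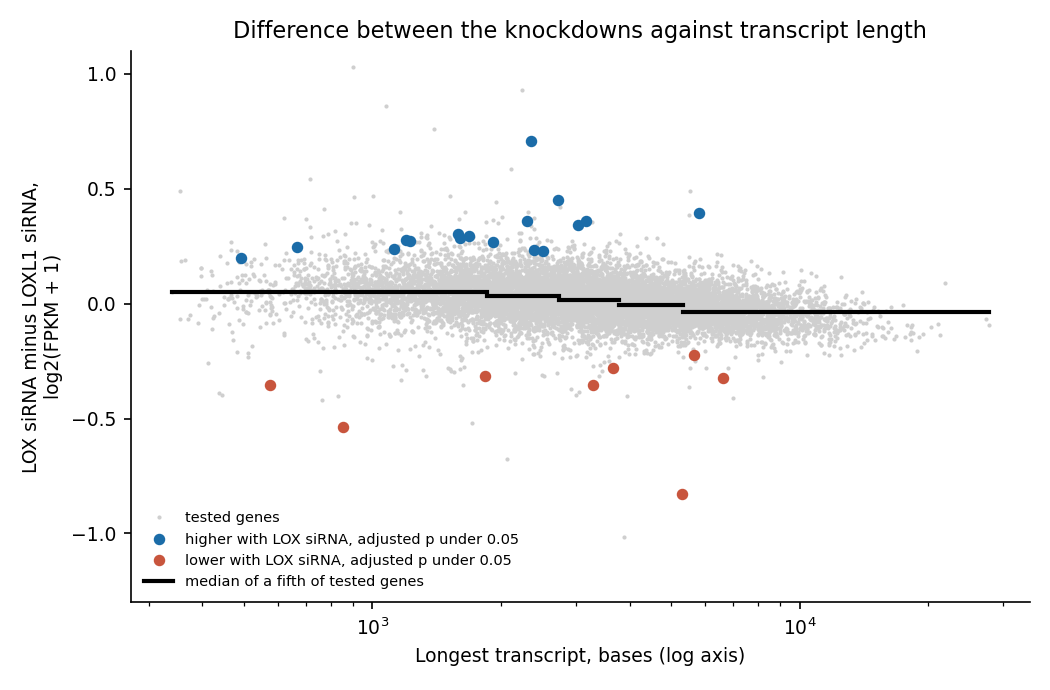
Log2 difference, LOX siRNA minus LOXL1 siRNA, against the length of the longest transcript in bases on a log axis for the tested genes, with the median of each of 5 length classes of equal size as a horizontal bar. The bars descend from 0.052 to -0.035 with length, and 2 genes lie outside the plotted range.

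The wider pathways of these genes were described by 20 gene lists. Over all 11808 tested genes, the median log2 difference was 0.011, 55.7% lay above 0, and the groups were separate in 12.1% with LOX siRNA higher and in 9.41% with LOX siRNA lower. In the list counts below, separate means that the 3 LOX siRNA libraries lay wholly above or wholly below the 3 LOXL1 siRNA libraries. Beside a list's median, the lowest and highest medians with 1 library left out are given where these moved it by over 1.5 times. In the lysyl oxidase family, 4 of 5 genes lay above 0 (median 0.076, 0.015 without LOX siRNA replicate 2 to 0.14 without LOXL1 siRNA replicate 3, and 0.011 at a mean FPKM of 5 or more), and LOX and LOXL1 were the members that passed. This list holds both siRNA targets, and LOXL1 is among the 4 above 0.

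Matrix genes other than the targets and HAS2 showed no difference past the adjusted threshold. Of 17 collagen chains, 12 lay above 0 with a median of 0.033 (0.0022 without LOXL1 siRNA replicate 1 to 0.074 without LOXL1 siRNA replicate 3), 2 were separate upward and 1 downward. COL4A1, a chain of basement membrane collagen, had 34.2 ± 2.904 FPKM with LOX siRNA, 29.3 ± 0.988 with LOXL1 siRNA and 33.4 ± 1.35 in controls (SD, n = 3 each), a log2 difference of 0.21 (adjusted p = 0.151). COL18A1 and COL12A1 had differences of 0.14 and -0.093 (adjusted p = 0.266 and 0.411). Elastic fibre and microfibril genes, the setting in which LOXL1 is best known, lay above 0 in 7 of 11 with a median of 0.028, or -0.0043 without LOX siRNA replicate 1 to 0.072 without LOX siRNA replicate 3. Of these 11 genes, 3 were separate upward and 0 downward. EFEMP2, the fibulin that aids elastin assembly, had 48.6 ± 1.18 FPKM with LOX siRNA, 43.3 ± 2.504 with LOXL1 siRNA and 47.8 ± 3.27 in controls, a log2 difference of 0.16 (adjusted p = 0.225). The latent TGF-beta binding proteins LTBP4 and LTBP3 had differences of 0.092 and 0.11. Collagen-modifying and folding enzymes lay above 0 in 14 of 18, with 4 separate upward and 1 downward (median 0.044, which was -0.0071 with length and GC trends removed). Its leading members were the prolyl hydroxylases P3H1 (0.15) and P4HA2 (0.10) and the peptidyl-prolyl isomerase FKBP10 (0.10), with adjusted p of 0.219, 0.315 and 0.343.

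Hyaluronan genes lay below 0 in 7 of 11, with a median of -0.038, 4 separate downward and 0 upward. Beside HAS2, the hyaluronan-binding proteoglycan VCAN had 15.9 ± 0.945 FPKM with LOX siRNA, 18.3 ± 0.765 with LOXL1 siRNA and 16.1 ± 0.504 in controls, a log2 difference of -0.19 (adjusted p = 0.146), and the hyaluronidase HYAL3 one of 0.10. Matricellular proteins were split, 5 of 9 above 0, and their median of 0.011 changed sign under several settings (-0.031 without LOX siRNA replicate 2 to 0.057 without LOX siRNA replicate 3, and -0.032 with quantile normalization). TNC, tenascin C, had 46.4 ± 2.75 FPKM with LOX siRNA, 52.6 ± 1.83 with LOXL1 siRNA and 46.99 ± 1.62 in controls, a log2 difference of -0.18 (adjusted p = 0.146), and THBS1, thrombospondin 1, one of -0.18 (adjusted p = 0.315). FBLN7, a fibulin, had a difference of 0.13. Metalloproteinases and TIMPs were 5 above and 5 below 0 (median 0.037, -0.032 without LOXL1 siRNA replicate 1 to 0.12 without LOXL1 siRNA replicate 3), with TIMP2, a protease inhibitor, at 0.10 (adjusted p = 0.296), TIMP3 at -0.11 and MMP19 at 0.13.

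For signalling and the cytoskeleton, TGF-beta pathway genes lay above 0 in 12 of 19 (median 0.026, 0.013 without LOXL1 siRNA replicate 3 to 0.036 without LOXL1 siRNA replicate 2), 2 separate upward and 4 downward. TGFB2, a ligand of the pathway, had 17.8 ± 0.448 FPKM with LOX siRNA, 20.8 ± 1.34 with LOXL1 siRNA and 18.5 ± 1.04 in controls, a log2 difference of -0.21 (adjusted p = 0.139). SMURF2, a ubiquitin ligase that acts on the receptors and SMADs, had -0.12 (adjusted p = 0.223), and SMAD6, an inhibitory SMAD, 0.19 (adjusted p = 0.362). Myofibroblast contractile genes lay below 0 in 12 of 17, with 1 separate upward and 4 downward (median -0.061, -0.071 without LOX siRNA replicate 1 to -0.032 without LOX siRNA replicate 3). Their medians against the shared controls were -0.012 with LOX siRNA and 0.035 with LOXL1 siRNA. ACTG2, smooth muscle gamma-actin, had 23.01 ± 0.273 FPKM with LOX siRNA, 24.8 ± 0.229 with LOXL1 siRNA and 24.2 ± 1.21 in controls, a log2 difference of -0.10 (adjusted p = 0.317). Smoothelin (SMTN) had a difference of -0.11 and caldesmon (CALD1) one of -0.11, and neither passed. Integrin subunits lay above 0 in 9 of 14, with 5 separate upward and 1 downward (median 0.025, 0.0032 without LOXL1 siRNA replicate 2 to 0.068 without LOXL1 siRNA replicate 3, and -0.0021 with quantile normalization). ITGB5, a partner in a vitronectin receptor, had a difference of 0.17, ITGA6, a laminin receptor chain, -0.15, and ITGA7, another laminin receptor chain, 0.20 (adjusted p = 0.189, 0.219 and 0.223).

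The partners of the single genes that passed did not follow them past the threshold. Among 16 anaphase-promoting complex genes, 11 lay above 0 (median 0.062, 0.036 without LOXL1 siRNA replicate 1 to 0.073 without LOXL1 siRNA replicate 2), 6 were separate upward and 1 downward, and CDC23 was the 1 that passed. ANAPC11, the RING subunit that recruits ubiquitin-loaded enzymes, had 22.9, 25.8 and 23.6 FPKM with LOX siRNA, 20.4, 20.7 and 18.01 with LOXL1 siRNA and 23.6, 24.1 and 25.02 in controls, a log2 difference of 0.28 (SE 0.058, adjusted p = 0.0835). ANAPC5 had 0.13 (adjusted p = 0.225). TFIID genes lay below 0 in 9 of 16 (median -0.0064, -0.029 without LOX siRNA replicate 3 to 0.012 without LOX siRNA replicate 1), with TAF2 at -0.11 and TAF3 at -0.10 beside TAF13. NRF2 target genes lay above 0 in 9 of 16 (median 0.017, -0.00044 without LOX siRNA replicate 3 to 0.026 without LOX siRNA replicate 1, and -0.0019 with quantile normalization). Beside HMOX1 the NRF2 target SRXN1, sulfiredoxin, had a difference of 0.15 (adjusted p = 0.173) and ME1, malic enzyme, one of -0.14. In the pentose phosphate pathway, 4 of 7 genes lay above 0, with a median of 0.00040 (-0.0014 without LOXL1 siRNA replicate 1 to 0.017 without LOXL1 siRNA replicate 3) that was -0.038 with length and GC trends removed. There TALDO1, transaldolase, had a difference of 0.11 (adjusted p = 0.415) and PGLS, the lactonase, one of 0.059, against -0.32 for RPIA.

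The next 4 lists leaned upward with LOX siRNA in most members, and none of their listed members passed. The lists do not hold every gene of their kind: RPLP2, a ribosomal protein gene, and NDUFAB1, a complex I gene, passed and are not on them. NF-kB and cytokine genes lay above 0 in 21 of 23 with the highest median, 0.14, but 4 were separate, and the median was -0.0073 without LOXL1 siRNA replicate 1 to 0.25 without LOXL1 siRNA replicate 3. CSF1, the macrophage growth factor, had 13.8, 13.7 and 14.2 FPKM with LOX siRNA, 10.4, 12.4 and 12.6 with LOXL1 siRNA and 14.6, 15.6 and 12.8 in controls, a log2 difference of 0.22 (adjusted p = 0.2499). ICAM1, an adhesion molecule for leukocytes, had 0.18 (adjusted p = 0.253), and TNFAIP2 0.17. Interferon-stimulated genes lay above 0 in 22 of 26 (median 0.068, 0.047 without LOXL1 siRNA replicate 1 to 0.12 without LOXL1 siRNA replicate 3, and 0.036 with length and GC trends removed). Of them 3 were separate upward, a share no higher than that of all genes, and 1 downward, and IFIT3, IFIH1 and STAT2 had differences of 0.24, 0.23 and 0.11. Cytosolic ribosomal protein genes lay above 0 in 35 of 36 (median 0.090, 0.059 without LOXL1 siRNA replicate 1 to 0.11 without LOXL1 siRNA replicate 3), 21 separate upward and 0 downward. RPLP0, a stalk protein that anchors RPLP2, had 937, 944 and 956 FPKM with LOX siRNA, 834, 874 and 838 with LOXL1 siRNA and 881, 884 and 909 in controls, a log2 difference of 0.16 (adjusted p = 0.099). RPS19 and RPL3 had differences of 0.15 and 0.16 (adjusted p = 0.109 and 0.109). Nuclear oxidative phosphorylation genes lay above 0 in 26 of 28 (median 0.076), 13 separate upward, with the complex I subunits NDUFV1, NDUFA2 and NDUFS7 at 0.15, 0.21 and 0.17. Transcripts of both last lists are short, with median lengths of 924 and 1199 bases, and with length and GC trends removed their medians were 0.055 and 0.034. Against the shared controls, the ribosomal median was 0.091 with LOX siRNA and 0.0060 with LOXL1 siRNA, while the NF-kB median was 0.017 with LOX siRNA and -0.15 with LOXL1 siRNA.

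Cholesterol synthesis genes lay above 0 in 21 of 24 (median 0.051, 0.024 without LOXL1 siRNA replicate 1 to 0.074 without LOXL1 siRNA replicate 3), 7 separate upward and 0 downward. EBP, a sterol isomerase, had 0.23 (adjusted p = 0.109) and FDPS, farnesyl diphosphate synthase, 0.14 (adjusted p = 0.193). Mitosis and G2/M genes went the other way, 21 of 23 lying below 0 (median -0.048, -0.079 without LOXL1 siRNA replicate 3 to -0.032 without LOXL1 siRNA replicate 1), 6 separate downward and 0 upward. MKI67, the Ki-67 antigen of cycling cells, had 71.8, 70.7 and 66.9 FPKM with LOX siRNA, 88.7, 81.5 and 75.5 with LOXL1 siRNA and 75.2, 78.2 and 72.2 in controls, a log2 difference of -0.22 (adjusted p = 0.109). The contractile ring protein ANLN and the spindle checkpoint kinase BUB1B had differences of -0.12 and -0.12. The medians of the mitosis list against the shared controls were 0.0093 with LOX siRNA and 0.065 with LOXL1 siRNA. In bulk RNA a change in the share of cycling cells and a change in RNA per cell cannot be told apart.

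**Figure D5:**
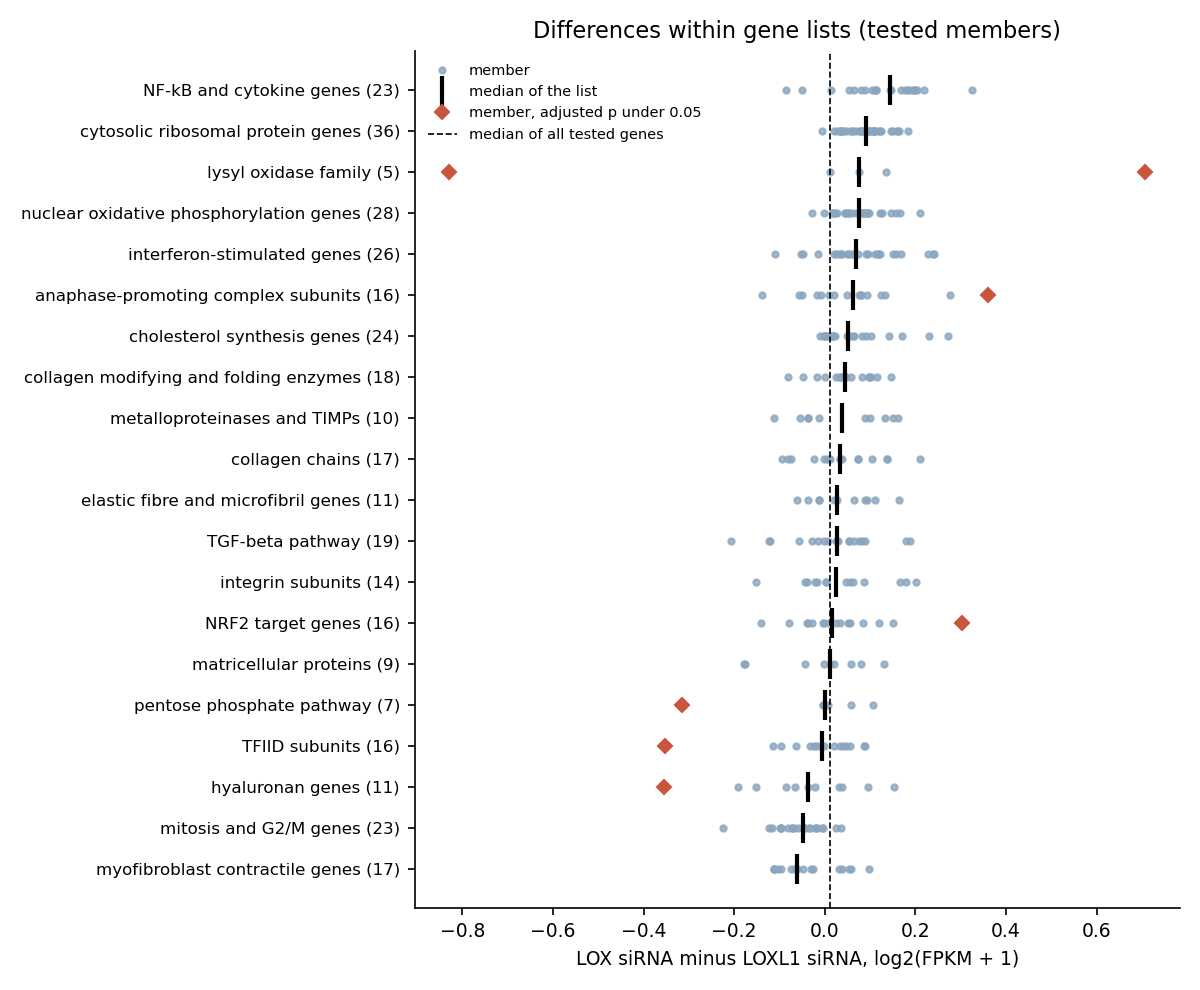
Log2 difference, LOX siRNA minus LOXL1 siRNA, for each tested member of the 20 gene lists, ordered by the list median (vertical bar), with members past the adjusted threshold as diamonds and the median of all tested genes as a dashed line. The number of tested members is in brackets, and the medians run from -0.061 for contractile genes to 0.14 for NF-kB and cytokine genes.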

How the data were processed

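RNA of LX-2 cells was sequenced on the BGISEQ-500 instrument, per the labels' protocols. The authors deposited 1 table of FPKM values for 17123 genes and 9 libraries, and no read counts, so depth is not given directly and no counting interval is given. Over 1552 genes near 0, the lowest FPKM above 0 was multiplied by transcript length in kilobases. Its library medians were alike, 0.05775 to 0.05891, and were not turned into a depth. TopHat2 2.0.10 and hg19 are named in the submitters' processing notes, but no source used here names the tool behind the FPKM values. Positions in the table match GRCh38 gene starts (91.3% of 17086 matched genes within 5000 bases) and are printed as GRCh38. FPKM divides by length and total, and a library with more fragments from short or GC-rich transcripts raises all such genes together.

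Values were analysed as log2(FPKM + 1), a scale that understates changes of low genes. One limma model of 3 groups over 9 libraries (limma 3.58.1, R 4.3.3, empirical Bayes with a trend, 6 residual degrees of freedom) gave all contrasts, with Benjamini-Hochberg adjustment over 11808 genes and a threshold of 0.05. With 3 libraries in each group the smallest p of an exact permutation test is 0.1, and single genes were therefore judged by this model. The genes named are the targets, all genes past the threshold, up to 3 members of each of 20 lists by smallest p, and the next 2 genes past the threshold. The comparison, its members and the lists were chosen with earlier results of these data known. Of the genes this rule names, 2 are not reported here. Near-identical gene copies are called uncertain. No pair of libraries had the same FPKM in more than 0.720% of tested genes. Same-numbered libraries did not deviate together (9 pairs, r of -0.068 to 0.025), so the replicate number was not used as a block. Alternatives were quantile normalization, median-ratio scaling, a pseudocount of 0.1, no filter on low values, a minimum mean of 5 FPKM, no trend in limma, the knockdown libraries alone, a replicate block, removal of length and GC trends (natural splines with 4 degrees of freedom, over the 98.6% of genes that have a GC value), the block with that removal, a log2 threshold of 0.5, and each library left out.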

Additional observations from a re-analysis of the deposited data

How the results depend on the processing

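Of the 25 genes, LOX passed in every setting run, and CDC23, AKIRIN1 and VOPP1 in every one except the log2 threshold of 0.5. With quantile normalization 11 genes passed (5 higher with LOX siRNA), without the limma trend 8 (6 higher, 2 lower), without a filter 4 (3 higher, 1 lower), and with a log2 threshold of 0.5, 3. With length and GC trends removed, 22 passed, 11 of them higher, and LOX siRNA departed from control at 7 of the 25 genes. The replicate block gave 15 calls (9 higher), and together with length and GC removal 16 (6 higher), with LOX siRNA departing at 7. Median-ratio scaling gave 21, the mean FPKM of 5 gave 34, the knockdown libraries alone 33 and the pseudocount of 0.1 again 25. With each library left out the calls ran from 5 to 56, from 4 to 41 higher and from 1 to 15 lower. LOX siRNA then departed at 9 to 13 genes and LOXL1 siRNA at 18 to 21. Shares of all tested genes that departed are given for the main fit alone, so the departure counts of these settings have none beside them. LOXL1 kept a difference of 0.71 without a filter but missed the threshold (adjusted p = 0.103). With each library left out its difference was 0.60 to 0.77, and without LOX siRNA replicate 3 it was 0.69 (adjusted p = 0.0520). PGLS turned to -0.021 with length and GC trends removed, with or without the block. The causes of these shifts were not tested. The table holds no counts, so the share of the spread that comes from depth was not analysed here, and 3 libraries in each group limit the differences that can pass to those well above the library spread.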
